A study of Homo sapiens with 9 samples.

Results

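RD cells carrying shTRPS1#2 were compared directly with RD cells carrying shTRPS1#1, without going through the non-targeting control. RD is an established human embryonal rhabdomyosarcoma line, a tumour of cells that start but do not finish skeletal muscle differentiation, and both hairpins are directed against the mRNA of TRPS1, a GATA-type zinc finger factor that acts on transcription. The libraries were chosen by their labels: 6 of the 9 libraries of the series, 3 with shTRPS1#2 and 3 with shTRPS1#1. The other 3 libraries, with a non-targeting hairpin (shNT), entered no test between the hairpins and are quoted only to show where a level lay. All 3 groups were treated alike, with doxycycline at 1 µM through 2 days of growth in medium holding 10% fetal bovine serum and 10 days of differentiation in medium holding 2% horse serum. RNA was selected by its poly(A) tail before sequencing. Whether each hairpin line was 1 clone or a pool is not stated in the labels. The hairpin and the cell population that carries it split the libraries in the same way, so their parts cannot be told apart.

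A short hairpin RNA is processed by DICER1 into a small RNA that an Argonaute protein uses to find and silence matching mRNAs. Hairpins against the same mRNA use different target sequences, so they share the intended target while each has its own set of partly matching transcripts. For this reason a pair of hairpins against a single gene is commonly used side by side. The labels do not give the hairpin sequences, so none are printed.

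TRPS1 itself did not separate the hairpins. Its counts were 1242, 1313 and 1280 with shTRPS1#2, against 1237, 1371 and 1299 with shTRPS1#1, and 1744, 1583 and 1695 with shNT. Scaled for library size to CPM, with TMM factors that adjust for differences in composition, the levels were 56.3, 58.9 and 56.8 CPM with shTRPS1#2, against 55.4, 61.7 and 56.2 CPM with shTRPS1#1. The values of the hairpin groups overlapped, and all 6 lay below the 3 shNT libraries. The log2 fold change of shTRPS1#2 over shTRPS1#1 was -0.01 ± 0.05 (SE, n = 3 libraries each, edgeR adjusted p = 0.933), with an approximate 95% interval of -0.10 to 0.08. In a fit over all 9 libraries the level was 78.0% of shNT with shTRPS1#2 and 78.6% with shTRPS1#1. TRPS1 lies on chromosome 8 from 115408496 to 115809673, on the minus strand of GRCh38.

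The libraries held 21965744 to 22378996 counts with shTRPS1#2, 22302248 to 23289062 with shTRPS1#1 and 22480288 to 22945103 with shNT. Skeletal muscle markers were high in every library. MYOG, a transcription factor of muscle differentiation, ran from 312 to 324 CPM with shTRPS1#2 and from 304 to 325 CPM with shTRPS1#1, while the blood markers CD3E and HBB had no count in any library. Of the 12 epithelial markers listed, 2 passed the filter on low counts, and the defining epithelial markers EPCAM, CDH1, KRT5 and KRT14 stayed at or below 0.177 CPM with shTRPS1#2 and 0.346 CPM with shTRPS1#1. Across the 6 hairpin libraries, the first principal component, with 42.9% of the variance, separated the hairpins, and the next held 15.7%. Libraries of the same hairpin were not copies of each other, since chi-square over degrees of freedom for their counts was 1.27 to 2.74, against 7.02 to 9.0 between groups. Separate cultures are not stated for the replicates, so p-values reflect the spread among these libraries alone, and that spread may be technical.

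Many genes differed between the hairpins, mostly by small amounts. Of 16635 genes that passed the filter, 3378 were called (20.3%), meaning that edgeR's quasi-likelihood test gave an adjusted p (Benjamini-Hochberg) below 0.05. Of these, 1584 were higher with shTRPS1#2 (9.52% of the genes tested) and 1794 were lower (10.8%). The median absolute log2 fold change of the called genes was 0.23, against 0.0999 over all genes tested. A change of at least 1.5-fold was reached by 457 called genes, 240 higher and 217 lower, and a change of at least 2-fold by 137, 80 higher and 57 lower. The libraries of the hairpin groups did not overlap for 3182 of the 3378 called genes, and for 32.9% of all genes tested.

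The share of genes called rose with their level, while the SE fell. Among genes under 2 CPM, 6.44% were called, with a median SE of 0.28 on the log2 scale, whereas 37.5% were called among genes above 128 CPM, where the median SE was 0.03. A difference of a low gene that was not called was therefore often not detectable at this depth. Of 13357 protein-coding genes 3150 were called (23.6%), against 228 of 3278 other genes (6.96%). The fit over all 9 libraries, which tested 17014 genes, called 3330 between the hairpins, 3213 between shTRPS1#2 and shNT and 2285 between shTRPS1#1 and shNT. These comparisons share libraries, so their counts are given side by side and not compared further.

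**Figure D1:**
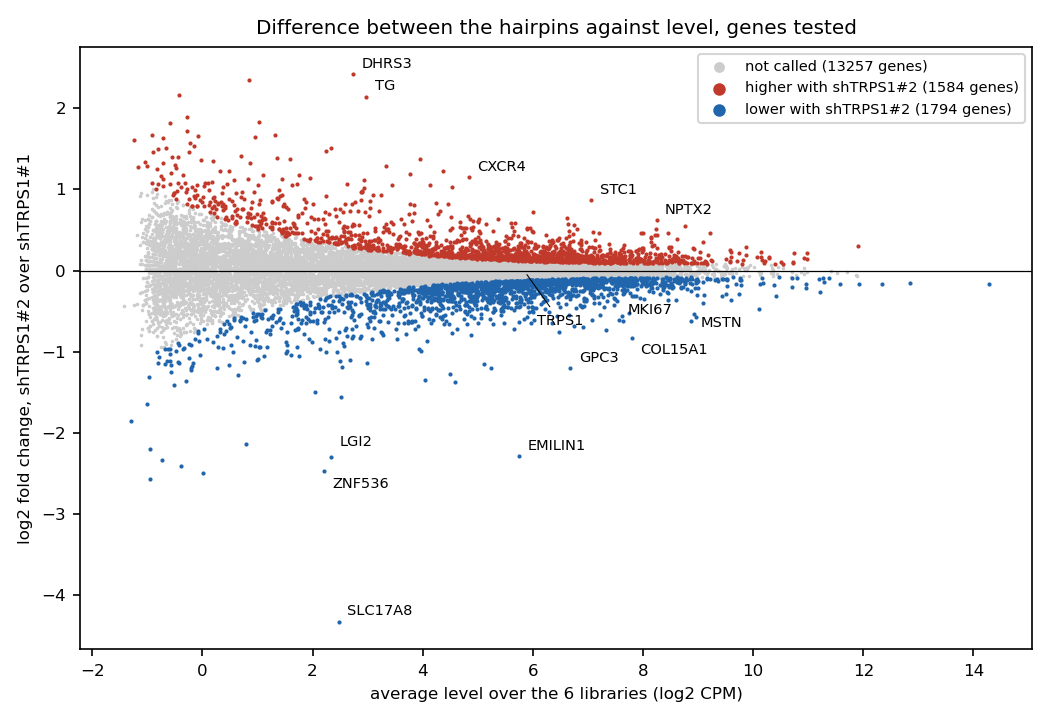
Log2 fold change of shTRPS1#2 over shTRPS1#1 (vertical axis) against the average level over the 6 libraries in log2 CPM (horizontal axis) for the 16635 genes tested. Each point is a gene, with 1584 genes called higher in red, 1794 called lower in blue and genes not called in grey. The grey band narrows towards high levels, and TRPS1 lies in it near 0.

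The largest rises with shTRPS1#2 were in genes of low level with varied roles. DHRS3, a retinaldehyde reductase that returns retinal to retinol, had 11.2, 11.4 and 10.6 CPM with shTRPS1#2, against 2.19, 2.38 and 1.64 CPM with shTRPS1#1, and 4.95, 4.77 and 4.67 CPM with shNT. The groups were far apart and shNT lay between them. Its log2 fold change was 2.42 ± 0.12 (edgeR adjusted p = 1.08e-25), a level 5.34 times that with shTRPS1#1. DHRS3 lies on chromosome 1 from 12567910 to 12617731 on the minus strand of GRCh38. C7, a component of the terminal complement pathway, had 7.48, 6.91 and 6.25 CPM with shTRPS1#2, against 2.51, 2.47 and 2.42 CPM with shTRPS1#1 (1.48 ± 0.13, edgeR adjusted p = 7.91e-15). Here the shNT libraries, at 1.18 to 1.31 CPM, lay below both hairpins. GJA5, a gap junction protein, had 7.79, 7.49 and 6.74 CPM with shTRPS1#2, against 2.51, 2.74 and 2.51 CPM with shTRPS1#1, close to 2.10 to 2.47 CPM with shNT.

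NTN1 (netrin-1), a guidance cue, had 30.3, 28.7 and 27.7 CPM with shTRPS1#2, against 13.5, 12 and 11.6 CPM with shTRPS1#1. PTHLH, the parathyroid hormone-like hormone, had 14.6, 14.8 and 13 CPM with shTRPS1#2, against 5.82, 5.98 and 5.62 CPM with shTRPS1#1. SMOC1, a calcium-binding matrix protein, had 22.3, 22.3 and 21.6 CPM with shTRPS1#2, against 8.06, 7.69 and 9.86 CPM with shTRPS1#1, and its shNT libraries at 18.7 to 20.9 CPM were nearer to shTRPS1#2. For all 3 genes the hairpin groups did not overlap, and the log2 fold changes were 1.23 ± 0.07 for NTN1, 1.28 ± 0.09 for PTHLH and 1.37 ± 0.08 for SMOC1.

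CXCR4, the receptor of the chemokine CXCL12, had 40.4, 41.7 and 36.1 CPM with shTRPS1#2, against 18.6, 17.9 and 16.6 CPM with shTRPS1#1, and 27.4 to 31.7 CPM with shNT (1.16 ± 0.06, edgeR adjusted p = 8.86e-25). Its ligand moved the other way. CXCL12 had 13.5, 12.6 and 14 CPM with shTRPS1#2, against 33.8, 36.0 and 34.3 CPM with shTRPS1#1, with shNT at 16.6 to 18.6 CPM (-1.38 ± 0.06, edgeR adjusted p = 1.01e-27). For receptor and ligand alike, the shNT libraries lay between the hairpins.

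More abundant genes with smaller but precise rises were STC1 and NPTX2. STC1, the secreted glycoprotein stanniocalcin-1, had 174, 175 and 168 CPM with shTRPS1#2, against 94.9, 96.4 and 93.0 CPM with shTRPS1#1 (0.87 ± 0.04, edgeR adjusted p = 1.14e-29), with shNT at 128 to 132 CPM. NPTX2, a neuronal pentraxin, had 366, 366 and 372 CPM with shTRPS1#2, against 239, 234 and 246 CPM with shTRPS1#1 (0.62 ± 0.03, edgeR adjusted p = 5.15e-25). The remaining genes among the 15 largest rises were the monoamine transporter SLC18A1 (1.83 ± 0.20), the receptor kinase ROR2 (1.39 ± 0.18), STOML3 (1.37 ± 0.17), the dynein subunit DYNC1I1 (1.19 ± 0.08), the sulfotransferase SULT1C2 (1.18 ± 0.15), the glutamate receptor subunit GRIK1 (1.18 ± 0.20), and TG with SLA. TG (thyroglobulin, 2.14 ± 0.11) and SLA (1.67 ± 0.18) overlap on opposite strands, and GRIK1 overlaps the far more abundant BACH1. The strand setting of the counting is not stated, so reads of such partners cannot be told apart.

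The largest falls with shTRPS1#2 were genes that stood out in the shTRPS1#1 libraries. SLC17A8, a vesicular glutamate transporter, had 0.317, 0.583 and 0.621 CPM with shTRPS1#2, against 9.72, 10.1 and 11.2 CPM with shTRPS1#1, and 0.394, 0.574 and 0.524 CPM with shNT. With shTRPS1#2 it thus overlapped the shNT libraries, and its level was 4.90% of that with shTRPS1#1 (-4.33 ± 0.17, edgeR adjusted p = 4.40e-31). It lies on chromosome 12 from 100357079 to 100422059 on the plus strand. EMILIN1, an elastin-associated glycoprotein of the extracellular matrix, had 19.2, 18.5 and 17.2 CPM with shTRPS1#2, against 94.2, 82.7 and 91.2 CPM with shTRPS1#1, and 15, 14 and 14.6 CPM with shNT. This was the smallest adjusted p of the comparison (-2.29 ± 0.05, edgeR adjusted p = 3.71e-44). EMILIN1 lies on chromosome 2 from 27078567 to 27086408 on the plus strand.

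ZNF536, a zinc finger repressor of neuronal differentiation, had 1.18, 1.44 and 1.51 CPM with shTRPS1#2, against 7.83, 7.33 and 7.92 CPM with shTRPS1#1 (-2.48 ± 0.14, edgeR adjusted p = 8.90e-23). LGI2, a secreted leucine-rich protein, had 1.90, 1.61 and 1.51 CPM with shTRPS1#2, against 8.19, 8.23 and 8.35 CPM with shTRPS1#1 (-2.30 ± 0.13, edgeR adjusted p = 1.49e-22). In both genes the hairpin groups did not overlap, and shNT was low, at 1.77 to 2.01 CPM for ZNF536 and 2.31 to 3.40 CPM for LGI2.

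GPC3, a cell surface heparan sulfate proteoglycan, had 66.2, 59.0 and 60.4 CPM with shTRPS1#2, against 146, 133 and 150 CPM with shTRPS1#1, and 79.4 to 83.5 CPM with shNT (-1.21 ± 0.04, edgeR adjusted p = 9.90e-34). PTN, the secreted growth factor pleiotrophin, had 21.6, 24.4 and 22.7 CPM with shTRPS1#2, against 52.1, 54.6 and 51.0 CPM with shTRPS1#1, and 15.2 to 18.1 CPM with shNT (-1.20 ± 0.05, edgeR adjusted p = 3.24e-28). Both were lower in every shTRPS1#2 library than in any shTRPS1#1 library. The others among the 15 largest falls were C1QTNF3 (-1.56 ± 0.12), the cytokine TNFSF15 (-1.49 ± 0.14), the matrix protein MATN2 (-1.35 ± 0.07), PITPNM3 (-1.28 ± 0.07), the bradykinin receptor BDKRB2 (-1.19 ± 0.12), the sarcomere protein MYBPC1 (-1.15 ± 0.06), NTN4 (netrin-4, -1.14 ± 0.10) and the TGF-beta family antagonist LEFTY1 (-1.11 ± 0.12). MATN2 overlaps the ribosomal protein gene RPL30 and PITPNM3 overlaps PIMREG on opposite strands, so their reads cannot be told apart.

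The shNT level lay differently for the 2 directions. For all 15 of the largest falls the mean shNT level was nearer, on a log scale, to shTRPS1#2 than to shTRPS1#1, between the hairpins in 8 genes and below both in 7. For the 15 largest rises it was nearer to shTRPS1#2 in 6 genes and nearer to shTRPS1#1 in 9, between the hairpins in 12 and below both in 3. These places are a description of the chosen genes, with no test.

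**Figure D2:**
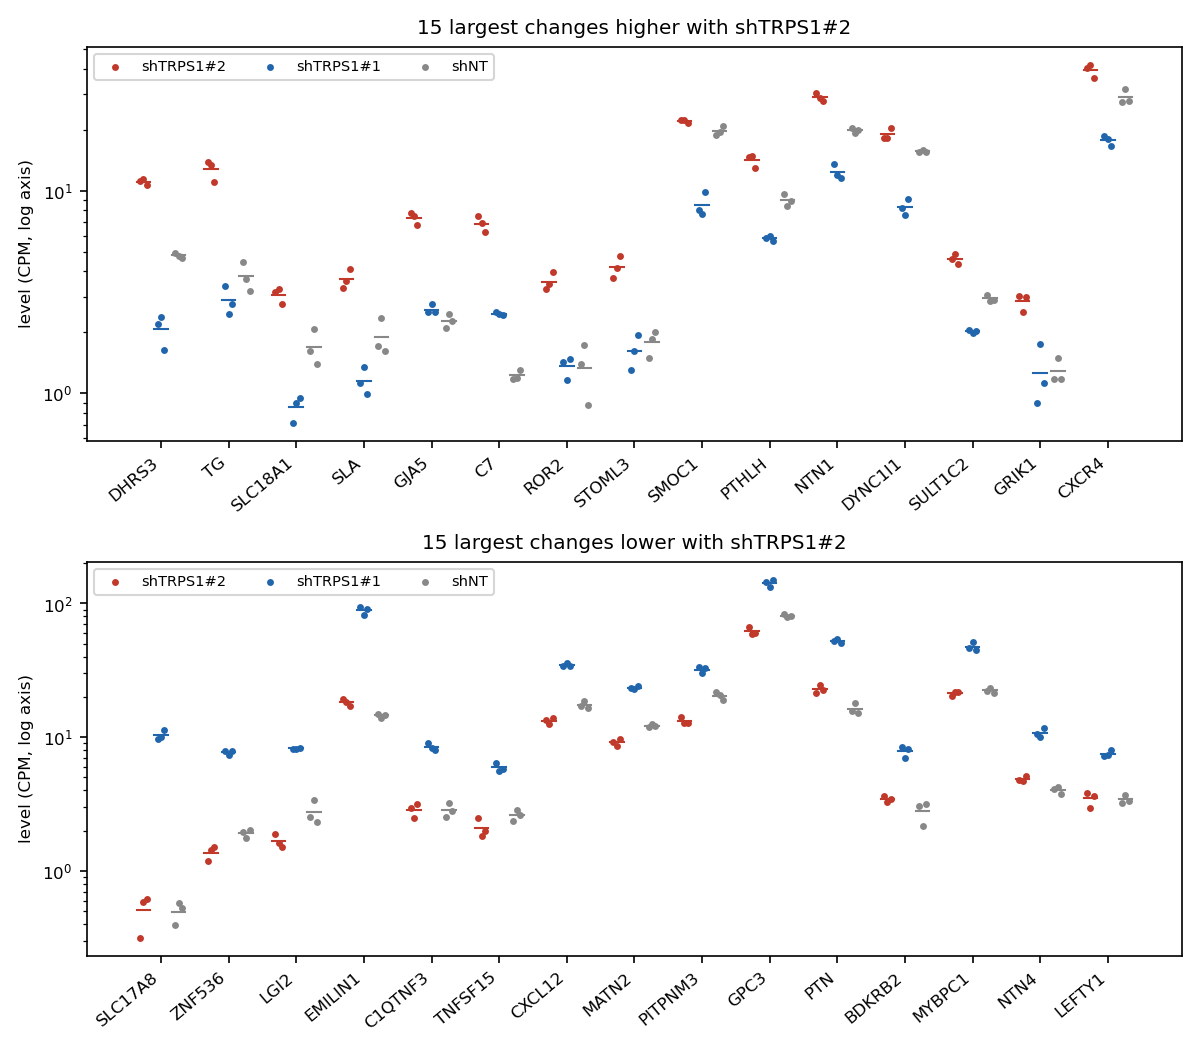
Level per library in CPM (vertical axis, log scale) of the 15 genes with the largest rise (upper panel) and the 15 with the largest fall (lower panel) with shTRPS1#2. Points are libraries and bars are means, from left to right shTRPS1#2 (red), shTRPS1#1 (blue) and shNT (grey). In the lower panel the shTRPS1#1 libraries stand above both other groups in every gene.

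Proliferation genes were lower with shTRPS1#2 almost throughout. Genes of mitosis are made in late cell cycle under the MuvB and FOXM1 complexes, and genes of DNA replication before S phase under the E2F factors. Differentiating muscle cells leave the cell cycle, which shuts both groups down. Of 43 mitosis genes tested, 39 were lower with shTRPS1#2 and 0 higher, with a median log2 fold change of -0.38, while over all genes tested 10.8% were lower and the median was 0.00. MKI67, which coats mitotic chromosomes, had 148, 153 and 148 CPM with shTRPS1#2, against 237, 214 and 238 CPM with shTRPS1#1, and 179 to 201 CPM with shNT (-0.62 ± 0.04, edgeR adjusted p = 2.14e-22). TOP2A, a topoisomerase that untangles sister chromosomes, had 152, 159 and 164 CPM with shTRPS1#2, against 239, 225 and 241 CPM with shTRPS1#1, and 202 to 210 CPM with shNT (-0.57 ± 0.04, edgeR adjusted p = 3.08e-21). In both genes the shNT libraries lay between the hairpins.

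The survivin gene BIRC5 (-0.63 ± 0.05), the transcription factor FOXM1 (-0.57 ± 0.05) and the mitotic kinase CDK1 (-0.55 ± 0.05) fell by similar amounts. CDK1 had 32.5, 34.7 and 36.6 CPM with shTRPS1#2, against 51.3, 50.4 and 50.8 CPM with shTRPS1#1, and 47.1 to 51.9 CPM with shNT, which overlapped shTRPS1#1. The 4 members that were not called were AURKA (-0.06 ± 0.05), CDC25B (-0.06 ± 0.04), BUB3 (-0.05 ± 0.03) and HMMR (0.06 ± 0.07). These were bulk libraries, so fewer cells that express a gene and less of its RNA per cell cannot be told apart.

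Of 46 genes of S phase and replication, 38 were lower with shTRPS1#2 and 0 higher, with a median of -0.30. RRM2, the ribonucleotide reductase subunit that limits nucleotide supply, had 118, 117 and 126 CPM with shTRPS1#2, against 206, 194 and 201 CPM with shTRPS1#1, and 175 to 194 CPM with shNT (-0.73 ± 0.04, edgeR adjusted p = 4.95e-26). Thymidylate synthase TYMS (-0.54 ± 0.04), thymidine kinase TK1 (-0.51 ± 0.05), the sliding clamp PCNA (-0.47 ± 0.05) and the helicase subunit MCM7 (-0.35 ± 0.03) also fell. PCNA had 55.9, 64.2 and 67.3 CPM with shTRPS1#2, against 88.4, 84.0 and 88.6 CPM with shTRPS1#1, and 73.4 to 87.2 CPM with shNT. Its shNT libraries overlapped those with shTRPS1#1 and not those with shTRPS1#2.

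The per-library pattern was the same in both lists. The median difference of the mitosis genes from the shTRPS1#1 mean, on the log2(CPM + 1) scale, was -0.42, -0.37 and -0.29 in the shTRPS1#2 libraries, against 0.03, -0.07 and 0.03 in the shTRPS1#1 libraries, and -0.09 to -0.03 with shNT. For the replication genes it was -0.32, -0.31 and -0.25 with shTRPS1#2, against 0.03, -0.05 and 0.01 with shTRPS1#1, and -0.08 to 0.03 with shNT. All 3 shTRPS1#2 libraries thus lay below every other library in both lists.

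Some promoters of these genes carry the letters that mark their classes. The windows below run from 250 bases before to 50 bases after the start site (RefSeq, GRCh38.p14). Their genes were chosen for a match in the window, and among called members with a match by smallest adjusted p. They are examples of the letters and do not stand for the other members. Capitals mark matches on either strand to TTTGAA (the cell cycle genes homology region, CHR) and CCAAT (read ATTGG on the other strand) in the mitosis genes, and to the E2F motifs TTCGCGC and TTGGCGC, which can overlap, in the replication gene.
MKI67 (chr10:128126374-128126673, minus strand): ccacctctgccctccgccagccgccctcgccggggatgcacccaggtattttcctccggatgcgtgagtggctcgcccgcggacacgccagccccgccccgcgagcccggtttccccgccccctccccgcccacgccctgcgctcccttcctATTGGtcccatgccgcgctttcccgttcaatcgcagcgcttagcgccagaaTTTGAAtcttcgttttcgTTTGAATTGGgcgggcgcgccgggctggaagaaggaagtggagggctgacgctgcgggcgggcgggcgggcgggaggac
TOP2A (chr17:40417847-40418146, minus strand): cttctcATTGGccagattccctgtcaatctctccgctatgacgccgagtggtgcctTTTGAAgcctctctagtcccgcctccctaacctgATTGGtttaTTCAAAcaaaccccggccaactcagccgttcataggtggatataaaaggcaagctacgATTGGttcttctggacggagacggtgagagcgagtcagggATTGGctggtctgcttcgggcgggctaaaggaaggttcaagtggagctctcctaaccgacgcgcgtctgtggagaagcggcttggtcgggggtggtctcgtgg
MCM7 (chr7:100101348-100101647, minus strand): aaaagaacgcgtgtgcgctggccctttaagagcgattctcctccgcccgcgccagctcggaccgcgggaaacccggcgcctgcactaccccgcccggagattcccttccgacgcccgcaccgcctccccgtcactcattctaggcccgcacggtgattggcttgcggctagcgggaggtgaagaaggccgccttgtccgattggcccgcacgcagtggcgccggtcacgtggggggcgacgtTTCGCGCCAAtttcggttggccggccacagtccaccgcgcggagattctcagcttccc

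The CHR letters were found in 26 of 36 mitosis promoters (72.2%), against 9.94% of the 11691 tested genes with a promoter window, and in 1 of 39 replication promoters (2.56%). CCAAT was found in 28 of 36 mitosis promoters (77.8%), against 36.4%. Either E2F motif was found in 17 of 39 replication promoters (43.6%), against 8.40%, and in 4 of 36 mitosis promoters (11.1%). A match is a description of these letters and not a site, and the lists were chosen from known cell cycle genes.

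Regulators of the G1 decision moved less, and the 2 CDK inhibitors called were lower with shTRPS1#2. Of 25 cyclins, kinases and CDK inhibitors of G1, 1 was higher with shTRPS1#2 and 7 were lower. CDKN1A (p21), the CDK inhibitor induced by p53 and MYOD1, had 113, 117 and 107 CPM with shTRPS1#2, against 136, 127 and 135 CPM with shTRPS1#1, and 85.1 to 90.5 CPM with shNT (-0.24 ± 0.04, edgeR adjusted p = 1.23e-06). CDKN2C, an inhibitor of CDK4 and CDK6, was also lower (-0.30 ± 0.05), as were CDK6 (-0.17 ± 0.03), the pocket protein RBL1 (-0.28 ± 0.06), E2F4 (-0.14 ± 0.04), CDK2 (-0.14 ± 0.04) and CDK4 (-0.10 ± 0.03). GADD45A was higher (0.14 ± 0.05, edgeR adjusted p = 0.0361), a call lost with DESeq2 and in several other settings.

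The D-type cyclins were close between the hairpins. CCND1 had 133, 133 and 122 CPM with shTRPS1#2, against 137, 130 and 133 CPM with shTRPS1#1, and 232 to 239 CPM with shNT. CCND2 (0.02 ± 0.03) and CCND3 (0.02 ± 0.03) were not called either. Among further members that were not called, CDKN1B was at -0.02 ± 0.05, CDKN1C at -0.04 ± 0.07, CDKN2A at 0.04 ± 0.04, CDKN2B at 0.04 ± 0.05, CDKN2D at 0.09 ± 0.07, RB1 at -0.02 ± 0.05, RBL2 at 0.02 ± 0.04, E2F3 at -0.06 ± 0.04 and E2F5 at -0.16 ± 0.06. The growth arrest genes BTG1 (-0.04 ± 0.04), BTG2 (-0.02 ± 0.06), TOB1 (0.08 ± 0.06), GADD45B (0.15 ± 0.14) and GADD45G (-0.09 ± 0.06) were not called.

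Of 21 p53 target genes, 1 was higher and 4 were lower, with a median of -0.02. The share called, 23.8%, was near the 20.3% of all genes tested. GDF15, a secreted stress cytokine, had 3.22, 3.23 and 2.26 CPM with shTRPS1#2, against 5.60, 5.62 and 5.80 CPM with shTRPS1#1 (-0.96 ± 0.13, edgeR adjusted p = 2.66e-08), and the groups did not overlap. TIGAR, a phosphatase of sugar metabolism, was higher (0.28 ± 0.07). SESN2 (-0.20 ± 0.07) and the death gene BBC3 (-0.30 ± 0.11) were called lower, and both calls were lost with DESeq2 and limma.

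**Figure D3:**
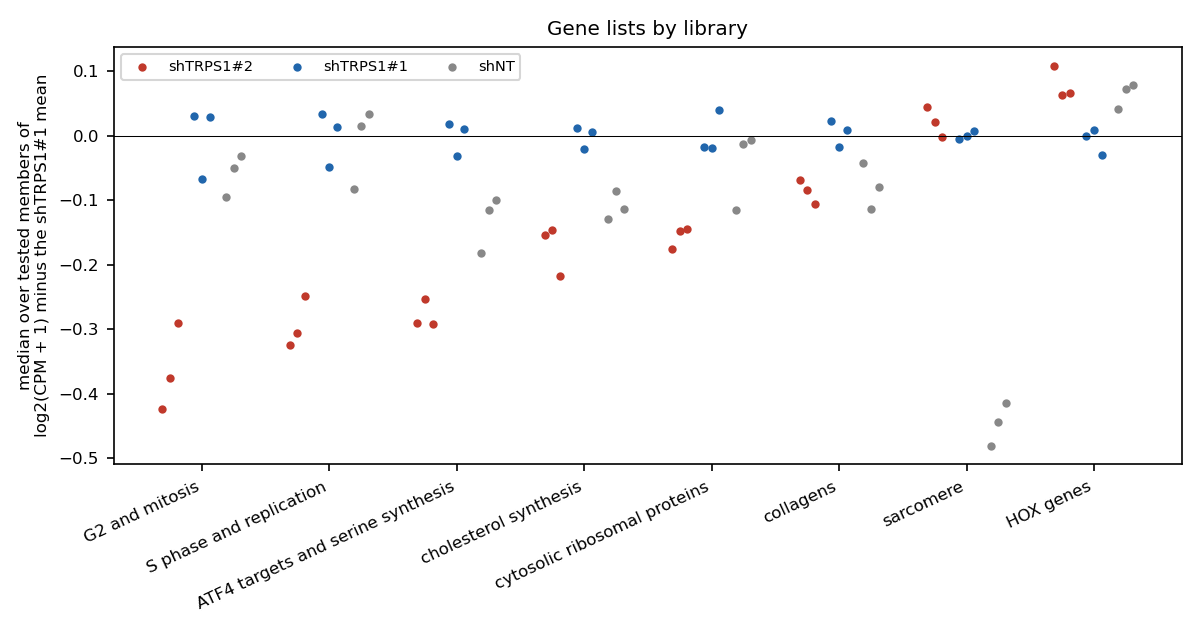
Median over the tested members of each list of log2(CPM + 1) minus the shTRPS1#1 mean (vertical axis), for 8 gene lists (horizontal axis). Points are libraries, from left to right shTRPS1#2 (red), shTRPS1#1 (blue) and shNT (grey). The shTRPS1#2 libraries lie between -0.42 and -0.29 for mitosis, and the sarcomere list separates shNT and not the hairpins.

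Genes of amino acid supply fell together as well. ATF4 is the transcription factor that cells use to raise amino acid uptake and serine synthesis under stress. Of 27 ATF4 targets and serine synthesis genes, 20 were lower with shTRPS1#2 and 0 higher, with a median of -0.30, and all 27 fold changes were below 0. MTHFD2, a mitochondrial enzyme of the folate cycle, had 86.4, 91.6 and 95.3 CPM with shTRPS1#2, against 150, 146 and 149 CPM with shTRPS1#1, and 125 to 133 CPM with shNT (-0.70 ± 0.04, edgeR adjusted p = 3.92e-24). PHGDH, the first enzyme of serine synthesis, had 160, 157 and 153 CPM with shTRPS1#2, against 245, 228 and 249 CPM with shTRPS1#1, and 188 to 198 CPM with shNT (-0.62 ± 0.04, edgeR adjusted p = 2.88e-23). For both enzymes shNT lay between the hairpins.

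The cystine transporter SLC7A11 (-0.63 ± 0.08), the folate enzyme ALDH1L2 (-0.45 ± 0.05) and the leucine transporter SLC7A5 (-0.39 ± 0.05) were lower too. ALDH1L2 had 37.9, 38.0 and 36.5 CPM with shTRPS1#2, against 51.2, 54.1 and 48.6 CPM with shTRPS1#1. Summed over the list, the level was 2467 to 2478 CPM with shTRPS1#2, against 2845 to 2883 CPM with shTRPS1#1 and 2613 to 2674 CPM with shNT, without overlap between any of the 3 groups. The C/EBP-ATF response element TGATGNAA was found in 6 of 20 promoters of the list (30.0%), against 1.75% of the tested genes. The list holds known ATF4 targets, so this share describes the list and not its fall. Among all genes called, the element was in 2.49% of promoters of genes lower with shTRPS1#2 and 2.36% of those higher. SLC7A1, a transporter of arginine and lysine chosen here for its match, fell by 0.34 on the log2 scale (SE 0.05, edgeR adjusted p = 8.89e-08), and its window carries the match, in capitals, after the start site.
SLC7A1 (chr13:29595639-29595938, minus strand): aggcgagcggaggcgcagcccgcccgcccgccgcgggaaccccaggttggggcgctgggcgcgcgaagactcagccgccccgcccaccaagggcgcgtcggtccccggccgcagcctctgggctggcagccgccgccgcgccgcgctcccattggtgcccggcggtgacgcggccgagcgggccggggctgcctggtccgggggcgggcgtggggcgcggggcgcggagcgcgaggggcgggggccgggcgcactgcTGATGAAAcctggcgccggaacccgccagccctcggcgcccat

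Sterol and fatty acid genes were lower by smaller amounts. Both pathways are run by the SREBP factors, which respond to sterol depletion. Of 25 cholesterol synthesis genes, 21 were lower with shTRPS1#2 and 0 higher, with a median of -0.17, and all 25 were below 0. HMGCS1, which makes the precursor of mevalonate, had 282, 296 and 277 CPM with shTRPS1#2, against 340, 364 and 344 CPM with shTRPS1#1, and 305 to 321 CPM with shNT (-0.29 ± 0.03, edgeR adjusted p = 1.13e-10). The thiolase ACAT2 (-0.28 ± 0.03), the sterol sensor INSIG1 (-0.28 ± 0.04) and MVD (-0.26 ± 0.04) fell to a like extent. Of 14 fatty acid genes, 8 were lower and 0 higher, with a median of -0.10.

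The desaturase SCD had 700, 706 and 639 CPM with shTRPS1#2, against 885, 866 and 880 CPM with shTRPS1#1, and 745 to 753 CPM with shNT (-0.36 ± 0.03, edgeR adjusted p = 7.18e-15). The transcription factor SREBF1 (-0.40 ± 0.05), fatty acid synthase FASN (-0.29 ± 0.03), ACSL3 (-0.31 ± 0.03) and the desaturase FADS2 (-0.23 ± 0.04) were also lower. ACAT2 overlaps TCP1, SREBF1 overlaps RAI1 and FADS2 overlaps FADS1 on opposite strands. In these genes, too, the 2 hairpin groups did not overlap.

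Genes of the cytosolic ribosome showed small and uniform falls. Of 57 cytosolic ribosomal protein genes, 49 were lower with shTRPS1#2 and 0 higher, with a median of -0.15. RPS13 had 113, 121 and 122 CPM with shTRPS1#2, against 156, 155 and 158 CPM with shTRPS1#1, and 140 to 158 CPM with shNT (-0.40 ± 0.04, edgeR adjusted p = 5.04e-14). RPS16 (-0.27 ± 0.03), RPS15 (-0.28 ± 0.04), RPS19 (-0.22 ± 0.03) and RPS12 (-0.23 ± 0.03) followed. These genes have many pseudogenes, and how reads that align in more than 1 place were counted is not stated, so single members are uncertain. Ribosomal protein genes took 1.687% to 1.703% of all counts with shTRPS1#2, against 1.84% to 1.92% with shTRPS1#1 and 1.73% to 1.89% with shNT.

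Short transcripts leaned the same way. Among genes above 2 CPM, split into 3 equal groups by counted gene length, the shortest group had a median log2 fold change of -0.02 (306 higher, 593 lower) and the longest one of 0.02 (693 higher, 545 lower). Whether transcript length had a part in the ribosomal protein values was not tested. Mitochondrial ribosomal proteins, with 0 higher and 1 lower of 40 (MRPL11, -0.27 ± 0.06) and a median of -0.02, and nuclear subunits of the respiratory chain, with 0 higher and 4 lower of 39 and a median of -0.01, did not share the fall. Of these 4, COX5B (-0.14 ± 0.04), NDUFV1 (-0.14 ± 0.04) and CYC1 (-0.13 ± 0.04) had the smallest adjusted p.

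Of 13 respiratory chain subunits encoded in mitochondrial DNA, 7 were lower and 0 higher, a count that fell to 0 with limma on the RPKM values. MT-CO2 had 1228, 1268 and 1236 CPM with shTRPS1#2, against 1341, 1356 and 1544 CPM with shTRPS1#1, and 1477 to 1546 CPM with shNT (-0.18 ± 0.03, edgeR adjusted p = 1.42e-05). Mitochondrial transcripts took 2.38% to 2.48% of counts with shTRPS1#2, against 2.54% to 2.60% with shTRPS1#1 and 2.69% to 2.74% with shNT. Of 26 genes of ribosome biogenesis and MYC-linked growth, 6 were lower and 0 higher, so 23.1% were called, near the 20.3% of all genes tested. The polyamine enzyme ODC1 (-0.35 ± 0.04), the nucleolar methyltransferase FBL (-0.29 ± 0.04), BOP1 (-0.21 ± 0.04), MYC itself (-0.19 ± 0.05) and UBTF (-0.13 ± 0.04) were among them, and 12 members were lower when replicate 2 of shTRPS1#1 was left out.

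Muscle genes moved in both directions. A sarcomere is built from myosin and actin filaments and their binding proteins, many of which exist in embryonic, slow and fast forms made by separate genes. Of 49 sarcomere genes, 17 were higher with shTRPS1#2 and 11 were lower, with a median of 0.02. MYBPC1, the slow form of myosin-binding protein C, had 20.2, 21.9 and 21.8 CPM with shTRPS1#2, against 46.4, 51.1 and 44.7 CPM with shTRPS1#1, and 21.6 to 23.5 CPM with shNT (-1.15 ± 0.06, edgeR adjusted p = 3.61e-26). MYBPC2, the fast form, had 9.65, 10.8 and 8.83 CPM with shTRPS1#2, against 5.55, 4.36 and 5.06 CPM with shTRPS1#1, and 5.21 to 5.25 CPM with shNT (0.97 ± 0.10, edgeR adjusted p = 1.94e-11). Each was set apart from shNT in 1 hairpin group only: MYBPC1 overlapped shNT with shTRPS1#2 and MYBPC2 did so with shTRPS1#1.

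MYH7, the slow and cardiac beta myosin heavy chain, had 126, 127 and 126 CPM with shTRPS1#2, against 163, 170 and 169 CPM with shTRPS1#1, and 74.8 to 77.6 CPM with shNT (-0.41 ± 0.04, edgeR adjusted p = 7.18e-15). MYH8, the perinatal heavy chain, had 61.9, 63.6 and 68.3 CPM with shTRPS1#2, against 88.7, 95.5 and 92.8 CPM with shTRPS1#1, and 35.0 to 37.8 CPM with shNT (-0.51 ± 0.04, edgeR adjusted p = 8.13e-16). The embryonic heavy chain MYH3 did not separate the hairpins, with 3012, 2876 and 2878 CPM with shTRPS1#2, against 3023, 2980 and 2993 CPM with shTRPS1#1 (-0.04 ± 0.03, edgeR adjusted p = 0.434). In these 3 heavy chains all hairpin libraries lay above shNT. TPM1, a tropomyosin, had 329, 317 and 328 CPM with shTRPS1#2, against 256, 265 and 266 CPM with shTRPS1#1, and 218 to 229 CPM with shNT (0.31 ± 0.03, edgeR adjusted p = 5.42e-12).

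Further sarcomere members were chosen after their values were seen, so whether the list splits by fibre type was not tested. Fast forms among them moved in both directions. The fast alpha-actinin ACTN3 (0.42 ± 0.05), the slow and cardiac troponin C gene TNNC1 (0.29 ± 0.04), the giant spring protein TTN (0.30 ± 0.03) and the ancient myosin MYH7B (0.60 ± 0.09) were higher with shTRPS1#2. The fast troponin T gene TNNT3 (-0.23 ± 0.04), the fast light chain gene MYL1 (-0.18 ± 0.03) and the actin regulator LMOD2 (-0.88 ± 0.14) were lower. The count of members higher was 9 with limma on log2(RPKM + 0.1) and 8 with a pseudocount of 1.

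Of 22 genes of calcium handling and the triad, the junction where the membrane signal meets the calcium store, 4 were higher with shTRPS1#2 and 10 lower, with a median of -0.11. ATP2A1, the fast-fibre calcium pump SERCA1, had 118, 117 and 120 CPM with shTRPS1#2, against 81.8, 75.3 and 81.9 CPM with shTRPS1#1, and 81.7 to 86.7 CPM with shNT (0.57 ± 0.04, edgeR adjusted p = 2.81e-19). SLN, the small peptide sarcolipin that slows this pump, had 11.2, 10.9 and 10.6 CPM with shTRPS1#2, against 17.7, 18.2 and 18 CPM with shTRPS1#1, and 12.6 to 15.3 CPM with shNT (-0.72 ± 0.07, edgeR adjusted p = 3.43e-12). ATP2A1 overlapped shNT only with shTRPS1#1, and SLN overlapped it with neither hairpin.

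CASQ2, the slow and cardiac calcium buffer of the store, had 148, 152 and 155 CPM with shTRPS1#2, against 202, 210 and 200 CPM with shTRPS1#1, and 92.2 to 97.2 CPM with shNT (-0.43 ± 0.03, edgeR adjusted p = 4.52e-16). PVALB, a calcium buffer of fast fibres, had 16.4, 17.1 and 18.1 CPM with shTRPS1#2, against 9.49, 10.0 and 9.78 CPM with shTRPS1#1, and 5.94 to 6.71 CPM with shNT (0.82 ± 0.08, edgeR adjusted p = 1.62e-13). For both buffers every hairpin library lay above shNT. The membrane anchor JPH1 was lower (-0.38 ± 0.05), and the release channel RYR3, named after its values were seen, was higher (0.82 ± 0.11).

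**Figure D4:**
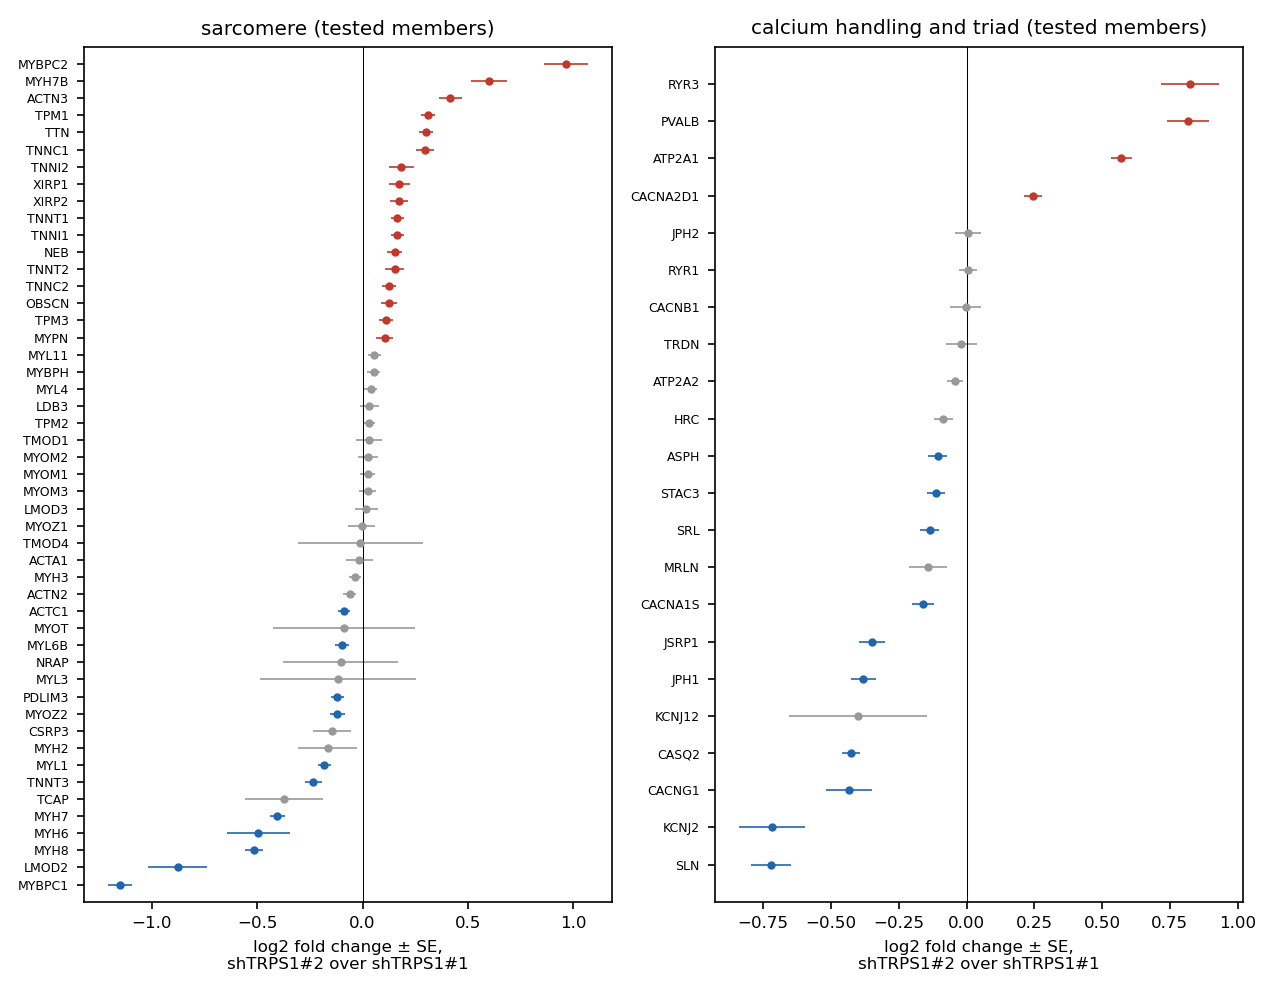
Log2 fold change of shTRPS1#2 over shTRPS1#1 with its SE (horizontal axis) for the tested members of the sarcomere list (left, 49 genes) and of the calcium handling list (right, 22 genes), ordered by value. Red points were called higher (17 and 4 genes), blue points called lower (11 and 10 genes) and grey points not called. Members lie on both sides of 0 in each list.

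Muscle transcription factors divided within families. Of 33 tested, 6 were higher with shTRPS1#2 and 11 lower, with a median of -0.05. PAX7, the factor of satellite cells, had 74.5, 69.0 and 65.7 CPM with shTRPS1#2, against 106, 100 and 103 CPM with shTRPS1#1, and 82.0 to 89.1 CPM with shNT (-0.56 ± 0.04, edgeR adjusted p = 8.52e-18). Its relative PAX3 was not called (-0.01 ± 0.06). Of the EYA factors and the sine oculis homeobox proteins that are their partners on muscle promoters, EYA1 (0.54 ± 0.05), EYA2 (0.71 ± 0.15) and SIX2 (0.38 ± 0.04) were higher, while EYA4 (-0.14 ± 0.04) was lower, and SIX4 (0.10 ± 0.04), SIX5 (-0.11 ± 0.05) and EYA3 (0.06 ± 0.04) were not called. EYA1 had 59.0, 60.1 and 56.2 CPM with shTRPS1#2, against 40.03, 42.2 and 38.9 CPM with shTRPS1#1, and 45.4 to 49.2 CPM with shNT.

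The myogenic bHLH factors changed little. MYOD1, the factor that commits cells to muscle, had 92.7, 90.5 and 81.7 CPM with shTRPS1#2, against 99.2, 92.3 and 104 CPM with shTRPS1#1, and 83.2 to 87.4 CPM with shNT (-0.16 ± 0.04, edgeR adjusted p = 0.00449). The MYOD1 groups overlapped, and its call was lost without replicate 3 of either hairpin and with limma. MYOG, which drives terminal differentiation, was not called (0.01 ± 0.03, edgeR adjusted p = 0.891). The E-proteins that pair with them gave TCF12 at -0.12 ± 0.03 (called), TCF4 at 0.09 ± 0.03 (called) and TCF3 at -0.06 ± 0.03 (not called).

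MEF2C (0.13 ± 0.03) was higher and MEF2D (-0.12 ± 0.04) lower, while MEF2A was not called (0.01 ± 0.04). Repressors of the programme were mixed: ZEB2 (-0.25 ± 0.03), the bHLH repressor MSC (-0.22 ± 0.04) and the Notch target HEYL (-0.25 ± 0.03) were lower, HES1 was higher (0.16 ± 0.05), and ZEB1 (0.03 ± 0.03), SNAI1 (0.22 ± 0.12), SNAI2 (-0.10 ± 0.04), HEY1 (-0.03 ± 0.04) and TWIST1 (0.02 ± 0.36) were not called. PITX3 (-0.43 ± 0.07) and VGLL2 (-0.11 ± 0.04) were lower. ID1 (-0.05 ± 0.23), ID2 (-0.36 ± 0.16) and ID3 (0.04 ± 0.06) were not called.

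Genes of assembly, fusion and the synapse moved in both directions. Of 22 genes of muscle assembly and turnover, 5 were higher and 6 lower, with a median of -0.03. The stretch-responsive ANKRD2 (1.13 ± 0.21), the ubiquitin ligase subunit ASB2 (1.05 ± 0.20), CMYA5 (0.20 ± 0.04) and the myosin chaperone UNC45B (0.16 ± 0.03) were higher, and the small heat shock protein HSPB7 was lower (-0.37 ± 0.06). Of 29 genes of fusion and the muscle membrane, 10 were higher and 7 lower, with a median of -0.04. The adhesion protein CDH4 had 21.4, 21.8 and 21.1 CPM with shTRPS1#2, against 38.5, 35.2 and 37.6 CPM with shTRPS1#1, and 24.6 to 26.2 CPM with shNT (-0.79 ± 0.06, edgeR adjusted p = 2.41e-18).

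Utrophin, UTRN (0.25 ± 0.03), and the receptor BOC (0.19 ± 0.03) were higher, while the dystroglycan gene DAG1 (-0.21 ± 0.03) and the sarcoglycan gene SGCA (-0.20 ± 0.04) were lower. Of 16 genes of the neuromuscular junction, 5 were higher and 1 lower, with a median of 0.05. The fetal acetylcholine receptor subunit CHRNG (0.24 ± 0.03), the neuregulin receptor ERBB3 (0.19 ± 0.04) and the kinase MUSK (0.11 ± 0.03) were higher, and RAPSN, which clusters the receptor, was lower (-0.19 ± 0.04). None of these lists moved in a single direction.

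Of the 17 heat shock genes tested, 2 were higher with shTRPS1#2 and 6 lower, with a median of -0.03. CRYAB, the lens and muscle chaperone alpha-B crystallin, had 10.6, 9.78 and 10.9 CPM with shTRPS1#2, against 21.6, 20.7 and 19.9 CPM with shTRPS1#1, and 9.85 to 10.7 CPM with shNT (-0.99 ± 0.07, edgeR adjusted p = 1.19e-17). With shTRPS1#2 it overlapped shNT. HSPB3 was lower too (-0.35 ± 0.05), and HSPB2 (-1.41 ± 0.35) overlaps CRYAB on the other strand. The members that were higher were HSPA8 (0.12 ± 0.03) and HSPH1 (0.12 ± 0.04).

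Of 22 endoplasmic reticulum chaperones and unfolded protein response genes, 2 were higher and 9 lower, but 1 to 5 were lower without replicate 1 or 3 of shTRPS1#1 or without replicate 1 or 2 of shTRPS1#2. EDEM1 (0.24 ± 0.05) was higher, and PDIA6 (-0.11 ± 0.03), CRELD2 (-0.17 ± 0.05), XBP1 (-0.12 ± 0.04) and PDIA3 (-0.11 ± 0.03) were called lower. Of 31 proteasome genes 2 were higher (PSMD11, 0.11 ± 0.04, and PSMD14, 0.10 ± 0.03) and 0 lower. Of 25 lysosome and autophagy genes 4 were higher and 0 lower, with the protease CTSB at 0.22 ± 0.03, GABARAPL1 at 0.24 ± 0.04 and WIPI1 at 0.18 ± 0.04. The share called was 6.45% in the proteasome list, against 20.3% of all genes tested. In the lysosome and autophagy list it was also below that of all genes tested.

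Glycolysis genes gave 4 higher and 0 lower of 22, so 18.2% were called, near the 20.3% of all genes tested. The muscle isoform PGAM2 (0.89 ± 0.14) overlaps the much more abundant DBNL on the other strand, and PKM (0.13 ± 0.03), ENO3 (0.12 ± 0.03) and the glucose transporter SLC2A3 (0.16 ± 0.05) rose slightly. Of 14 hypoxia response genes 5 were higher and 3 lower. NDRG1 was higher (0.49 ± 0.05) and the angiogenic factor VEGFA lower (-0.25 ± 0.04), as was the prolyl hydroxylase EGLN3 (-0.37 ± 0.07).

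**Figure D5:**
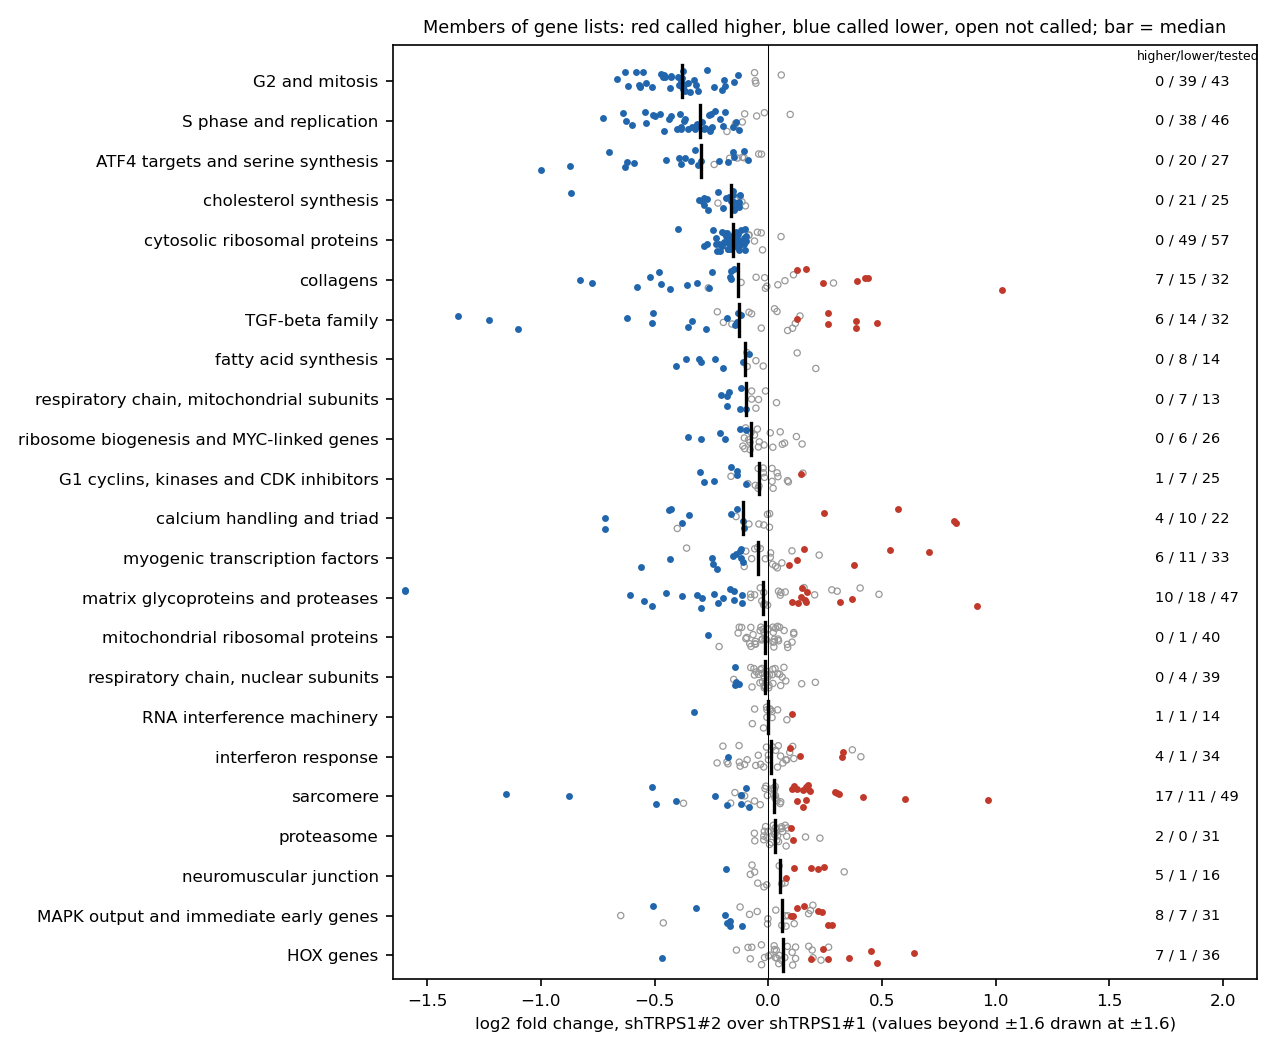
Log2 fold change of shTRPS1#2 over shTRPS1#1 (horizontal axis) for the tested members of 23 gene lists (vertical axis). Red points were called higher, blue points called lower and open points not called, black bars are medians, and the figures at the right count members higher, lower and tested. The mitosis, replication, ATF4, cholesterol and ribosomal lists hold no member called higher, whereas collagens, sarcomere and matrix genes lie on both sides.

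Extracellular matrix genes differed often and in both directions. Collagens form the fibrils and sheets of the matrix. Of 32 collagen genes 7 were higher with shTRPS1#2 and 15 lower, with a median of -0.13. The share called was 68.8%, against 20.3% of all genes tested and 37.5% of those above 128 CPM. COL15A1, a basement membrane collagen, had 167, 165 and 146 CPM with shTRPS1#2, against 290, 280 and 282 CPM with shTRPS1#1, and 266 to 276 CPM with shNT (-0.83 ± 0.04, edgeR adjusted p = 1.01e-28). COL1A1, a chain of fibrillar type I collagen, had 933, 925 and 917 CPM with shTRPS1#2, against 1326, 1225 and 1299 CPM with shTRPS1#1, and 1127 to 1212 CPM with shNT (-0.47 ± 0.03, edgeR adjusted p = 9.24e-21). In COL15A1 shNT was near shTRPS1#1 and in COL1A1 it lay between the hairpins.

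COL8A1, a short-chain collagen, went the other way, with 27.9, 30.7 and 34.4 CPM with shTRPS1#2, against 14.3, 15.3 and 16 CPM with shTRPS1#1, and 23.6 to 23.9 CPM with shNT (1.03 ± 0.07, edgeR adjusted p = 3.11e-20). The transmembrane collagen COL25A1 was higher (0.44 ± 0.03) and the fibrillar COL5A3 lower (-0.52 ± 0.04). COL3A1, the collagen with the highest CPM among those named here, was lower by a small amount (-0.16 ± 0.03), with 18526, 18828 and 18815 CPM with shTRPS1#2, against 20952, 20772 and 21291 CPM with shTRPS1#1. That call was lost with limma on the RPKM values.

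Of 47 matrix glycoproteins and proteases 10 were higher and 18 lower, with a median of -0.02. The share called was 59.6%, against 20.3% of all genes tested and 37.5% of those above 128 CPM. Beside EMILIN1, the protease inhibitor TIMP3 had 104, 106 and 111 CPM with shTRPS1#2, against 170, 156 and 164 CPM with shTRPS1#1, and 163 to 165 CPM with shNT (-0.61 ± 0.04, edgeR adjusted p = 1.13e-21). The microfibril protein FBN2 (-0.55 ± 0.04), the proteoglycan VCAN (-0.29 ± 0.03) and TNXB (-0.45 ± 0.05) were lower, and the basement membrane protein NID2 (0.37 ± 0.06) and the protease ADAMTS12 (0.31 ± 0.04) were higher. Elastin (ELN) was named after its values were seen, because it binds EMILIN1. It was at 0.181, 0.135 and 0.177 CPM with shTRPS1#2, against 1.16, 0.540 and 0.865 CPM with shTRPS1#1. The levels with shTRPS1#2 are only a few counts per library. ELN passed the filter on low counts only through its shTRPS1#1 libraries, so no test of it is quoted.

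Of 26 cadherins and protocadherins 4 were higher and 6 lower. CDH4 has been given above, PCDH18 was lower (-0.22 ± 0.03), and FAT3 (0.23 ± 0.04), PCDH17 (0.33 ± 0.05) and CDH17 (0.86 ± 0.17) were higher. Fibroblast markers gave 3 higher and 5 lower of 9. S100A4 was lower (-0.60 ± 0.05), as was the receptor PDGFRB (-0.55 ± 0.07), and FAP was higher (0.35 ± 0.08). The 5 defining fibroblast markers were mostly abundant: DCN had 765 to 807 CPM with shTRPS1#2 and 709.9 to 759.7 CPM with shTRPS1#1, LUM 189.9 to 194 CPM with shTRPS1#2 and 198 to 223 CPM with shTRPS1#1, and THY1 201 to 213 CPM with shTRPS1#2 and 188 to 196 CPM with shTRPS1#1. COL1A1 has been given above, and PDGFRA, low and not called, had 3.19 to 3.90 CPM with shTRPS1#2 and 2.78 to 3.19 CPM with shTRPS1#1. Which cells made these transcripts, and their part in the matrix results, was not tested.

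Signals of the TGF-beta family were more often lower than higher with shTRPS1#2. Members of this family bind serine kinase receptors and restrain or promote muscle growth. Of 32 genes 6 were higher and 14 lower, with a median of -0.13, and 9 were lower with DESeq2. MSTN, myostatin, the secreted inhibitor of muscle growth, had 360, 360 and 381 CPM with shTRPS1#2, against 561, 573 and 561 CPM with shTRPS1#1, and 537 to 553 CPM with shNT (-0.62 ± 0.03, edgeR adjusted p = 1.20e-25). All shTRPS1#2 libraries lay below all others. TGFB3 (0.26 ± 0.05) was higher, and the co-receptor TGFBR3 (-0.28 ± 0.05) and the target TGFBI (-0.34 ± 0.04) lower.

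Ligands outside that family also differed. Of 39 growth factors and receptor kinases 9 were higher and 13 lower, with a median of 0.04. PDGFC had 47.7, 48.5 and 49.0 CPM with shTRPS1#2, against 75.3, 75.9 and 76.4 CPM with shTRPS1#1, and 46.6 to 47.1 CPM with shNT (-0.65 ± 0.04, edgeR adjusted p = 8.49e-20). FGF1 had 36.1, 35.6 and 34.5 CPM with shTRPS1#2, against 23.1, 24.3 and 21 CPM with shTRPS1#1, and 20.5 to 22.5 CPM with shNT (0.64 ± 0.06, edgeR adjusted p = 3.61e-14). These ligands show the 2 arrangements side by side, PDGFC high with shTRPS1#1 and FGF1 high with shTRPS1#2. The binding proteins of insulin-like growth factors split, with IGFBP6 higher (0.57 ± 0.04) and IGFBP3 (-0.33 ± 0.03) and IGFBP2 (-0.30 ± 0.03) lower.

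Of 31 genes of MAPK output and immediate early response, 8 were higher and 7 lower, and 5 were higher with DESeq2 or limma. DUSP6, a phosphatase of ERK, had 525, 520 and 528 CPM with shTRPS1#2, against 423, 442 and 431 CPM with shTRPS1#1, and 509 to 542 CPM with shNT (0.28 ± 0.03, edgeR adjusted p = 2.53e-11). SPRY4 (0.26 ± 0.03), ETV4 (0.23 ± 0.04) and ETV5 (0.22 ± 0.04) were higher too, and for DUSP6 the shNT libraries overlapped those with shTRPS1#2. The growth factor HBEGF (-0.51 ± 0.10) and the AP-1 subunit JUND (-0.18 ± 0.03) were lower.

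Of 35 Notch, Hedgehog and Wnt genes 6 were higher and 8 lower. The receptor NOTCH3 had 410, 419 and 374 CPM with shTRPS1#2, against 628, 566 and 599 CPM with shTRPS1#1, and 433 to 463 CPM with shNT (-0.57 ± 0.03, edgeR adjusted p = 4.40e-22). The Hedgehog effector GLI2 (-0.45 ± 0.05) and the Wnt inhibitors NOTUM (-0.65 ± 0.09) and NKD2 (-0.47 ± 0.08) were lower, while the ligands WNT5A (0.23 ± 0.03) and WNT11 (0.48 ± 0.09) were higher. Among 20 cytokines and NF-kappaB targets, 3 were higher and 4 lower. The chemokines CCL2 (0.81 ± 0.08) and CXCL8 (1.13 ± 0.17) were higher and IL32 (-1.04 ± 0.17) lower.

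HOX genes record position along the body axis and lie in 4 clusters. Of 36 HOX genes 7 were higher with shTRPS1#2 and 1 lower, with a median of 0.07, so 22.2% were called, near the 20.3% of all genes tested. HOXB8 had 39.0, 39.0 and 41.1 CPM with shTRPS1#2, against 26.1, 24.7 and 25.6 CPM with shTRPS1#1, and 30.4 to 30.9 CPM with shNT (0.64 ± 0.05, edgeR adjusted p = 1.90e-15). Its neighbours HOXB6 (0.36 ± 0.05), HOXB7 (0.24 ± 0.05) and HOXB9 (0.19 ± 0.04) were higher too. HOXB7 overlaps HOXB8, while HOXB6 lies 6.4 kb and HOXB9 6.2 kb from HOXB8. Genes of this cluster that overlap on the same strand may share reads, so these rises may not be separate observations. Each is nevertheless counted among the 7 HOX genes that were higher. HOXB2 (0.07 ± 0.05), HOXB3 (0.05 ± 0.04), HOXB4 (0.03 ± 0.07), HOXB5 (0.18 ± 0.08) and HOXB13 (0.03 ± 0.07) of the same cluster were not called. HOXD3 was higher (0.48 ± 0.11), and HOXA13 was called lower (-0.47 ± 0.16), a call lost without 4 of the 6 single libraries.

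Neuronal genes gave 7 higher and 2 lower of 19. The sodium channels SCN9A (0.26 ± 0.03), SCN3A (0.28 ± 0.04) and SCN2A (0.74 ± 0.09) and the neurofilament NEFM (0.52 ± 0.06) were higher, though SCN2A and SCN3A overlap on opposite strands. DCX, doublecortin, had 10.3, 10.9 and 9.49 CPM with shTRPS1#2, against 21.1, 20.3 and 18.5 CPM with shTRPS1#1, and 5.72 to 6.58 CPM with shNT (-0.96 ± 0.08, edgeR adjusted p = 1.23e-16). Of the 4 defining neuronal markers, SYT1 had 49.5 to 53.5 CPM with shTRPS1#2 and 45.0 to 45.8 CPM with shTRPS1#1, SNAP25 had 10.3 to 11.6 CPM with shTRPS1#2 and 10.9 to 12.1 CPM with shTRPS1#1, STMN2 stayed at or below 0.519 CPM, and RBFOX3 had 1 count over the shTRPS1#2 libraries and 2 over the shTRPS1#1 libraries.

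Among other markers, smooth muscle and SRF target genes gave 3 higher and 2 lower of 17, with ACTA2 (-0.66 ± 0.07) and DES (-0.20 ± 0.03) lower and MYLK (0.30 ± 0.06) and SYNPO2 (0.16 ± 0.03) higher. Cartilage and bone markers gave 2 higher and 2 lower of 8, with ACAN (0.92 ± 0.17) and RUNX2 (0.46 ± 0.10) higher and ALPL (-0.44 ± 0.05) and SOX9 (-0.20 ± 0.06) lower. The keratin genes KRT8 (0.85 ± 0.26) and KRT18 (0.40 ± 0.11), which overlap each other, were called higher, and both calls were lost with DESeq2 and limma. Endothelial markers gave 1 higher (FLT1, 0.63 ± 0.19) and 0 lower of 6, adipocyte markers 0 higher and 1 lower (CD36, -0.10 ± 0.03) of 3, and 0 of 12 blood cell markers passed the filter.

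The machinery that hairpins use, and the response that foreign RNA can raise, were close between the groups. Of 14 RNA interference genes 1 was higher and 1 lower, with a median of 0.00, so 14.3% were called against 20.3% of all genes. AGO4, an Argonaute, had 31.5, 29.6 and 30.7 CPM with shTRPS1#2, against 38.2, 39.4 and 37.8 CPM with shTRPS1#1, and 34.6 to 37.0 CPM with shNT (-0.33 ± 0.05, edgeR adjusted p = 9.81e-07). AGO1 was called higher (0.11 ± 0.04, edgeR adjusted p = 0.0269), a call lost with DESeq2, with limma and without 4 of the 6 single libraries. The slicer AGO2 (0.01 ± 0.03), DICER1 (0.02 ± 0.03), DROSHA (-0.01 ± 0.04), DGCR8 (-0.06 ± 0.04) and the export factor XPO5 (-0.01 ± 0.04) were not called.

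The other members not called were AGO3 (0.08 ± 0.04), TARBP2 (0.02 ± 0.05), PRKRA (-0.07 ± 0.04), ADAR (0.01 ± 0.03), TNRC6A (-0.01 ± 0.04), TNRC6B (-0.02 ± 0.04) and TNRC6C (0.04 ± 0.05). Of 34 interferon response genes 4 were higher and 1 lower, with a median of 0.01. The share called was 14.7%, against 20.3% of all genes tested. The RNA sensor RIGI had 35.4, 35.1 and 34.1 CPM with shTRPS1#2, against 27.8, 27.0 and 28.9 CPM with shTRPS1#1, and 25.6 to 28.1 CPM with shNT (0.32 ± 0.05, edgeR adjusted p = 3.02e-06). IFI44L (0.33 ± 0.09), IFIT1 (0.14 ± 0.05) and B2M (0.10 ± 0.03) were higher and OAS3 lower (-0.18 ± 0.06), and only RIGI of these kept its call in every setting tried.

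TRPS1 is known to recruit the NuRD complex, which removes acetyl groups from histones. Of 15 members of the list of TRPS1 and NuRD subunits 0 were higher and 2 lower, GATAD2A (-0.10 ± 0.04, edgeR adjusted p = 0.0303) and MBD2 (-0.15 ± 0.05, edgeR adjusted p = 0.0459). Both calls were lost with DESeq2, limma and library totals as the only scaling. The share called in this list was 13.3%, against 20.3% of all genes tested. The remodellers CHD3 (-0.07 ± 0.03) and CHD4 (-0.02 ± 0.05), the deacetylases HDAC1 (0.04 ± 0.03) and HDAC2 (0.04 ± 0.03) and MTA1 (-0.06 ± 0.04), MTA2 (-0.08 ± 0.04) and MTA3 (-0.01 ± 0.04) were not called. RBBP4 (-0.05 ± 0.03), RBBP7 (-0.06 ± 0.04), MBD3 (-0.01 ± 0.04), GATAD2B (0.03 ± 0.04) and CDK2AP1 (0.05 ± 0.04) were not called either.

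The remaining lists held few calls. Of 9 metallothionein and zinc transporter genes 0 were higher and 1 lower, SLC39A14 (-0.23 ± 0.04). Of 11 replication histone genes, whose mRNAs mostly lack a poly(A) tail and are poorly captured here, 1 was higher (H4C8, 0.28 ± 0.09) and 0 lower. No chromosome stood out: the medians ran from -0.02 on chromosomes 16 and 19 to 0.02 on chromosomes 3 and 14, and the share of genes called from 16.6% on chromosome 16 to 24.5% on chromosome 8.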

How the data were processed

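Per the file headers and the labels, the authors deposited 2 tables over 60676 Ensembl gene identifiers and 9 libraries, whole-number read counts per gene and RPKM. Build GRCh38 and the tools STAR 2.7.2b, featureCounts 1.6.5 and bcl2fastq 2.20.0.422 are listed, per the submitters' processing notes, with no roles. For strandedness, annotation release and multiply aligned reads, each setting is not given in the sources used here. RPKM, as deposited, equalled counts over gene length and library total (largest relative deviation 4.49e-14). A table of gene names gave symbols for 60357 identifiers, and the 319 others held 0.107% of counts. Positions and overlaps came from GENCODE release 29 and promoter windows from RefSeq GRCh38.p14.

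The deposited counts of the 6 hairpin libraries were tested with edgeR 4.0.16 (R 4.3.3, quasi-likelihood test, default filter with a minimum of 10 counts, TMM scaling, 4 residual degrees of freedom, Benjamini-Hochberg adjustment over 16635 genes, called under 0.05). The SE is the absolute log2 fold change over the square root of F, and intervals span 1.96 SE each way, so both are approximate. Levels are CPM with TMM factors over 9 libraries. The script was tested on simulated data. Alternatives used DESeq2 1.42.0, other scalings and filters, all 9 libraries, limma 3.58.1 on log2(RPKM + 0.1) and log2(RPKM + 1), a replicate block and leaving out each library.

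The libraries, the 46 gene lists (1268 genes) and the tests were chosen with earlier results of these data known. Named genes were TRPS1, the 15 largest changes and 5 smallest adjusted p each way (log2 CPM averaging at least 1, proper symbols, no overlap between groups), in each list up to 5 called members ranked by adjusted p plus up to 2 called against the list's majority, and every tested member of 4 lists (TRPS1 and NuRD, RNA interference, myogenic factors, G1 regulators), except a few items that are not reported here. Genes named beyond this rule (AURKA, CDC25B, BUB3, HMMR, SLC7A1, MYH3, ACTN3, TNNC1, TTN, MYH7B, TNNT3, MYL1, LMOD2, RYR3, ELN, the HOXB genes not called and those under other observations) were chosen after their values were seen.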

Additional observations from a re-analysis of the deposited data

How the results depend on the processing

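Of the 236 named genes called, none changed direction in any of the 15 settings tried. The call was lost for 26 with DESeq2, 36 with limma at either pseudocount, 8 without a filter, 6 with library totals as the only scaling, 2 with all 9 libraries, and 10 to 27 when a library was left out, and for 0 with DESeq2 size factors in edgeR; 1 had no adjusted p with DESeq2 and 5 were not tested at 50 counts. The number of genes called ran from 2302 with DESeq2 to 3647 with the replicate block. Genes higher numbered 1021 with DESeq2, against 1584. Genes lower numbered 1172 with limma on log2(RPKM + 0.1) and 1173 on log2(RPKM + 1), against 1794. Called genes changed at least 1.5-fold numbered 282 with DESeq2, 248 with at least 50 counts in 3 libraries (13069 genes tested) and 74 with limma on log2(RPKM + 1), against 457. The cause of the differences between tools was not tested. With library totals as the only scaling, 1825 genes were higher and 1598 lower, so the more frequent direction of the calls depends on the scaling. Leaving out 1 library gave 2467 to 3396 genes called, 1109 to 1525 higher, 1358 to 1871 lower and 401 to 463 changed at least 1.5-fold. The TRPS1 difference, never called, was above 0 with library totals (0.0038), limma on log2(RPKM + 0.1) (0.0047) and on log2(RPKM + 1) (0.0039), and ran from -0.037 to 0.040 without single libraries (0.040 without replicate 2 of shTRPS1#1, 0.0038 without replicate 1 of shTRPS1#2).

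The replicate numbers did not pair the libraries: the correlations of same-numbered deviations were 0.043, -0.010 and 0.014. The replicate block gave 3647 calls (1730 higher, 1917 lower, 467 at least 1.5-fold) and lost no named gene.

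Among list counts of at least 5, those that moved by over 1.5 times with a change of tool, scaling or filter were, for members lower, the TGF-beta family (9 with DESeq2, against 14), endoplasmic reticulum chaperones (2 with limma, against 9), mitochondrial subunits (0 with limma, against 7), myogenic factors (6 with limma, against 11), Notch, Hedgehog and Wnt (5 with limma, against 8), cadherins (3 with limma, against 6), fusion genes (4 with limma, against 7) and fibroblast markers (3 with limma, against 5). For members higher they were hypoxia genes (3 with DESeq2 and with limma on log2(RPKM + 1), against 5), sarcomere (9 and 8 with limma, against 17), fusion genes (6 with limma on log2(RPKM + 0.1), against 10), MAPK output (5 with DESeq2 and limma, against 8), matrix genes (6 with limma on log2(RPKM + 1), against 10) and muscle assembly (3 with at least 50 counts in 3 libraries, against 5). Counts below 5 moved in many lists: interferon genes higher numbered 2 with DESeq2 and 1 with limma (against 4), p53 targets lower 2 with either tool (against 4), NuRD subunits lower 0 with DESeq2, limma and library totals (against 2), and RNA interference genes higher 0 with DESeq2 and limma (against 1). Without single libraries, G1 regulators lower numbered 4 without replicate 2 of shTRPS1#2, against 7, and junction genes higher 3 without replicate 3 of shTRPS1#1, against 5. Hypoxia genes higher numbered 3, against 5, without replicate 1 of shTRPS1#1 or replicate 2 or 3 of shTRPS1#2. MAPK genes higher numbered 5, against 8, without replicate 1 or 3 of shTRPS1#1 or replicate 2 of shTRPS1#2. The counts for mitosis, replication, ATF4, cholesterol and cytosolic ribosomal genes stayed within 1.5 times in all 15 settings. The medians of the RNA interference, interferon and growth factor lists, all near 0, changed sign in some settings (growth factors to -0.08 without replicate 2 of shTRPS1#1).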

Other observations

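Genes near some of the leading genes were looked at after the values were seen, within 500 kb and with no test. Around EMILIN1, 8 of 29 tested genes were lower with shTRPS1#2 and 1 was higher. They included the zinc transporter SLC30A3, with mean levels of 1.35 CPM with shTRPS1#2, against 2.80 CPM with shTRPS1#1 (-1.06 ± 0.19), KHK, the fructose kinase next to it, with 6.74 CPM with shTRPS1#2 and 9.45 CPM with shTRPS1#1 (-0.49 ± 0.10), DPYSL5, with 32 CPM with shTRPS1#2 and 40.8 CPM with shTRPS1#1 (-0.35 ± 0.05), and MAPRE3, with 27.4 CPM with shTRPS1#2 and 32.6 CPM with shTRPS1#1 (-0.25 ± 0.06). CENPA, a mitosis gene, was also among them (-0.43 ± 0.10). The share lower, 8 of 29, stands beside 10.8% over all genes tested.

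Around ZNF536, 3 of 4 tested genes were lower, among them the replication gene CCNE1 (-0.43 ± 0.06), but another of the 3 is an unnamed transcript that overlaps ZNF536 itself and may share its reads. Around LGI2 0 of 7 tested genes were called, although LGI2 itself fell by 2.30 on the log2 scale. Around SLC17A8, 1 of 8 was higher and 1 lower. Of the genes near leading rises, 3 of 5 around CXCR4 were higher and 1 lower. Around DHRS3, 1 of 3 was higher and 1 lower. Over all genes tested, 9.52% were higher and 10.8% lower. The neighbour of GPC3 on chromosome X, GPC4, moved the other way, with mean levels of 105 CPM with shTRPS1#2, against 82.7 CPM with shTRPS1#1 (0.34 ± 0.04). Near STC1, the protease gene ADAM28 was higher, with 34.7 CPM with shTRPS1#2, against 21.8 CPM with shTRPS1#1 (0.67 ± 0.07), and next to SCN9A the sodium channel SCN7A was higher, with 1837 CPM with shTRPS1#2 and 1585 CPM with shTRPS1#1 (0.22 ± 0.03).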
